A study of Mus musculus with 9 samples.

Results

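The signal transducers and activators of transcription (STATs) are transcription factors that carry cytokine and hormone signals from the cell membrane to the nucleus. The genes described here are *Stat2*, *Stat3*, *Stat4*, *Stat5a*, *Stat5b* and *Stat6*, chosen as members of this family by symbol. No measured value entered the choice, though earlier results of these data were known. They are 6 of the 55228 genes in the table. Of the 6, 5 passed the filter on low counts and are among the 15253 genes tested, and *Stat4* had no count in any culture.

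RNA was measured by RNA-seq in 9 cultures of HC11, an epithelial cell line from the mammary gland of BALB/c mice, with 3 cultures each of the parental *WT* cells and of the *Vangl2* lines *KD1* and *KD2*. The samples are called cultures here, though the labels give only replicate numbers and do not say that the cultures were separate. The comparison asks what changes when *Vangl2*, a gene of planar cell polarity, is targeted, and STAT5 signaling is the pathway of most interest to the study. All 9 cultures were undifferentiated cells kept in RPMI with FBS, insulin and EGF, and none received prolactin, dexamethasone or any other treatment. Each *KD* line was grown from a single colony after nucleofection of Cas9, a repair template with stop codons and a guide to *Vangl2* of its own, and the labels call the lines knockout 1 and knockout 2. *KD1* and *KD2* are thus 1 clone each, *WT* is the uncloned parent, and the effect of the guide cannot be told apart from that of cloning.

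A STAT waits in the cytoplasm until a Janus kinase bound to an activated receptor phosphorylates it. It then forms dimers, enters the nucleus and binds DNA, and the genes it turns on include SOCS proteins that shut the signal down. In the mammary gland, prolactin acts through STAT5 to drive alveolar growth and milk protein genes, STAT6 takes part in luminal differentiation, and STAT3 drives the removal of cells at weaning. STAT2 joins IRF9 in the complex that answers type I interferon, and STAT4 carries signals of interleukin 12 in lymphocytes. Since STAT proteins are switched by phosphorylation, a transcript level does not show how much of a STAT is active.

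In GRCm38, *Stat3* (ENSMUSG00000004040, chr11:100885098-100939540, minus strand), *Stat5a* (ENSMUSG00000004043, chr11:100859351-100885169, plus strand) and *Stat5b* (ENSMUSG00000020919, chr11:100780731-100850724, minus strand) lie side by side. *Stat5a* and *Stat5b* start next to each other, with 8626 bases between the genes, and the last exons of *Stat5a* and *Stat3* overlap by 72 bases on opposite strands. *Stat6* (ENSMUSG00000002147, chr10:127642986-127660957, plus strand) and *Stat2* (ENSMUSG00000040033, chr10:128270559-128292849, plus strand) are 609601 bases apart. *Stat4* (ENSMUSG00000062939, chr1:51987148-52107189, plus strand) stands alone. Because *Stat5a* and *Stat5b* are close copies, 608 windows of 50 bases in the exons of *Stat5b* (11.0%) also occur in *Stat5a*, where they are among the 8.52% of windows that occur in another gene. How reads in such windows, and reads from either strand, were counted is not given in the sources used here, so the split between *Stat5a* and *Stat5b* is uncertain to that extent. For *Stat3* and *Stat2* the shares were 0.555% and 0.788%, and for *Stat6* it was 0.

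RefSeq start sites gave 9 promoter windows for the 6 genes, each reaching 250 bases upstream and 50 bases downstream (GRCm38.p6). *Stat5a* and *Stat5b* each have 2 start sites. The windows of the downstream start site of each gene held the longest run shared by any pair of members, 16 bases, against at most 11 between other pairs. In a local alignment of those windows, 83 of 100 aligned bases were identical, with 4 bases in gaps. They are shown because *Stat5a* and *Stat5b*, alike in this stretch, moved differently in *KD2*. The capitals mark the shared run, which ends 17 bases before the start site of *Stat5a* and 8 bases before that of *Stat5b*. The *Stat5a* stretch is chr11:100860422-100860481 on the plus strand, and that of *Stat5b* is chr11:100822564-100822623 on the minus strand.
Stat5a: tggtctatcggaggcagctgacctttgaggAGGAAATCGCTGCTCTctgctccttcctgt
Stat5b: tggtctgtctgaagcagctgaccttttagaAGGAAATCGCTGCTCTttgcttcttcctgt

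STAT dimers bind the GAS motif, searched as TTCNNNGAA, and the complex that holds STAT2 binds the ISRE, searched as GAAANNGAA, both on either strand. No member window held a GAS match, which 8.30% of the 32851 promoter windows of that length did. An ISRE match stood in 8.56% of all windows, and among the members in that of *Stat2* and in 1 of the 2 windows of *Stat4*. The *Stat2* window (chr10:128270248-128270547, plus strand) is shown because *Stat2* had the largest rise of the 5 genes tested, with its match on the minus strand in capitals. A match is a sequence only and shows no binding.
Stat2: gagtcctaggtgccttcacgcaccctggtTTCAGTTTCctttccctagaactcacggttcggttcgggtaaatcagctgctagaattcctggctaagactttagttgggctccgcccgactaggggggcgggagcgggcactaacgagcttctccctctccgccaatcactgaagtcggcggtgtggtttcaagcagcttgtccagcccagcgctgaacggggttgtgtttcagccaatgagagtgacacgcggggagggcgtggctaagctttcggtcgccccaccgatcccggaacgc

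Total counts ranged from 19231428 to 28360592 per culture, and 3 counts, the floor for what a library can show, is 0.0999 to 0.154 CPM (counts scaled to a common, TMM-adjusted library size). WT replicate 1 and KD2 replicate 3 stood apart from their replicates, with a chi-square per degree of freedom over genes of 11.9 to 24.9 in the pairs that hold them and 1.42 to 3.67 in the others. *Vangl2* itself was at 3.85 ± 0.421 CPM in *WT*, 2.48 ± 0.513 in *KD1* and 4.00 ± 0.399 in *KD2* (mean ± SD, n = 3). Its transcript fell in *KD1* (log2 fold change -0.63, SE 0.171, adjusted p = 0.0058) and did not pass the test in *KD2* (0.05, SE 0.162, adjusted p = 0.81). The protein, by the immunoblots of the paper, was nearly absent in *KD1* and strongly reduced in *KD2*, so the transcript level does not show the loss of protein. All 8 epithelial markers were detected, with a summed level of 4843 to 5411 CPM in *WT*, 6092 to 6240 in *KD1* and 2891 to 3587 in *KD2*. The 12 leukocyte markers summed to at most 8.69 CPM in any culture, and *Cd4*, *Nkg7* and *Adgre1* were at 0 throughout. The 6 endothelial markers summed to at most 5.70 CPM. The 6 fibroblast markers summed to 14.0 to 19.8 CPM in *WT*, where *Dcn* and *Lum* were at 0, and 8.07 to 10.1 in *KD1*, where *Col1a2* and *Lum* were. In *KD2* they summed to 87.7 to 97.2 and none was at 0 throughout, though *Dcn* and *Lum* had at most 6 and 3 counts per culture. The sums rest on few genes. *Pdgfrb* carried that of fibroblast markers in *KD2*, from 0.823 CPM in *WT* to 66.8. *Pdgfra* and *Col1a2* rose there too (log2 fold changes 1.04 and 1.38), while *Col1a1* fell (-0.71, adjusted p = 0.0019). In *KD2* the epithelial genes *Krt5*, *Krt14*, *Cdh1* and *Epcam* fell (-0.96, -0.90, -0.69 and -0.36). *Cldn7*, at no more than 24 counts in any culture, fell as well (-1.92), and *Krt8* rose (0.76). In *KD1* *Cldn4* rose (4.85) to 633 CPM. The part of these differences in the results below was not tested. RNA came from whole cultures, where fewer cells with a transcript and less of it per cell cannot be told apart.

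*Stat6*, *Stat3* and *Stat5b* made up most transcript of the 6 genes in every line. Compared per length of exon, the level of *Stat6* in *WT* was 28.6 ± 1.46 CPM per kb (SD, n = 3), that of *Stat3* was 16.6 ± 1.04 and that of *Stat5b* was 11.0 ± 0.380. *Stat5a* was at 2.21 ± 0.193 CPM per kb and *Stat2* at 1.58 ± 0.167. The order in *KD1* was *Stat6*, *Stat3*, *Stat5b*, *Stat2* and *Stat5a*, and in *KD2* it was *Stat3*, *Stat6*, *Stat5b*, *Stat2* and *Stat5a*. *Stat2* and *Stat5a* had thus changed places in both lines, and *Stat3* and *Stat6* in *KD2*. In no line did the 3 cultures of neighbours in the order overlap. These levels divide by all annotated exons, so a gene whose longer isoforms are not made is placed too low.

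The summed level over the 6 genes was 60.0 ± 2.92 CPM per kb in *WT*, 83.2 ± 0.593 in *KD1* and 75.3 ± 3.70 in *KD2*, with no overlap between the lines. *Stat3* made up 27.7% of this sum in *WT*, 38.0% in *KD1* and 40.0% in *KD2*. *Stat6* held 47.6%, 41.3% and 33.8% in the same order. *Stat2*, the least abundant of the 5 in *WT*, went from 2.64% to 3.64% in *KD1* and 6.54% in *KD2*. As these are shares of a sum, a rise of 1 gene lowers the others.

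*Stat4* had 0 counts in all 9 cultures, which allows at most the floor of 0.0999 to 0.154 CPM. A gene model on the same strand, *Gm28177*, covers 1033 of its 3872 exon bases, and at most 1 count per culture went to that model.

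In *KD1*, 3 of the 5 STAT genes tested changed against *WT* (adjusted p under 0.05), and all 3 rose. Among all genes tested 56.9% changed, 26.9% upward and 30.0% downward. In *KD2*, 4 of the 5 changed, 3 up and 1 down, where 67.2% of all genes changed, 34.0% upward and 33.3% downward. Between the lines, 4 of the 5 differed, 2 higher and 2 lower in *KD2*, where 67.8% of all genes did, 34.8% higher and 33.0% lower. With 5 genes against backgrounds this high, the number that changed does not set the family apart. A rise of over 2-fold that passed the test was seen for *Stat2* in *KD2*, as for 14.5% of all genes, and for *Stat5a* in *KD2* against *KD1*, as for 14.7%. In *KD1* the highest fold of the 5 genes was 1.91, where 9.34% of all genes passed 2-fold upward. Both comparisons with *WT* rest on the same 3 *WT* cultures. Without the 2 libraries that stood apart, all 5 passed the test in each comparison, in the directions given below. The share of all genes that passed in that setting is not given here, so this count has no background beside it.

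**Figure D1:**
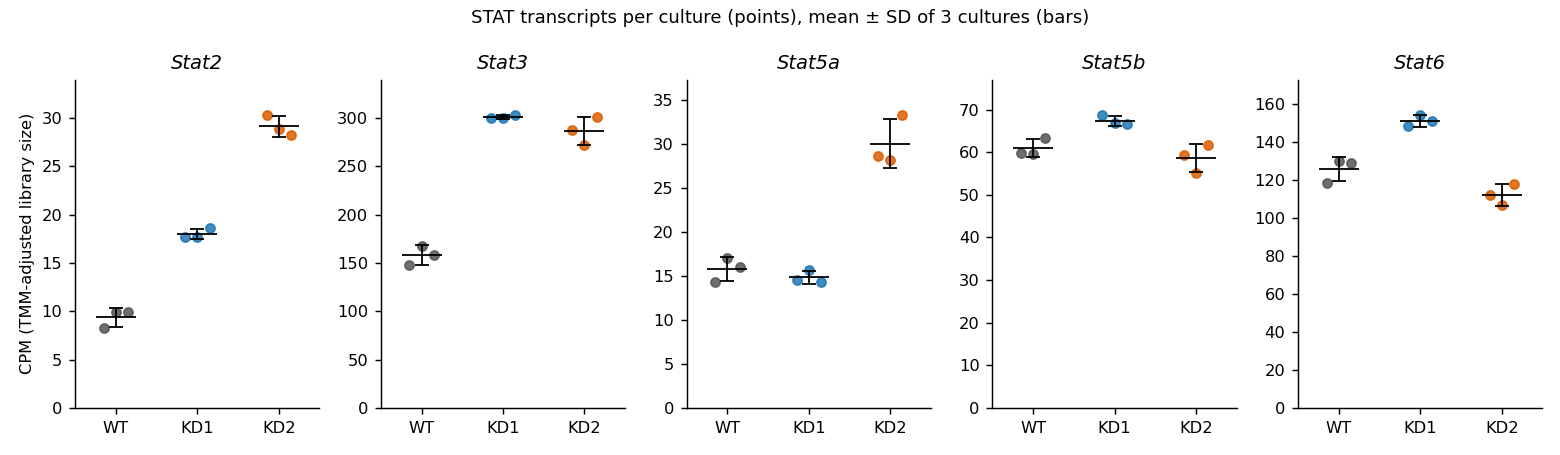
Level of each detected STAT transcript in CPM, on an axis from 0 of its own for each gene, in the 3 cultures of each line (points), with the mean and SD (bars). *Stat2* stood at 3 separate levels, *Stat3* was up in both *KD* lines, *Stat5a* was up in *KD2* and not in *KD1*, and *Stat5b* and *Stat6* moved little.

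*Stat2*, which acts in the interferon response, rose in both lines and more in *KD2*. *WT* cultures had 161, 249 and 204 counts, *KD1* cultures had 478, 450 and 461, and *KD2* cultures had 750, 867 and 573. The levels of the 3 lines did not overlap, at 8.25 to 9.96 CPM in *WT*, 17.6 to 18.6 in *KD1* and 28.2 to 30.3 in *KD2*. The rise was 1.91-fold in *KD1* (log2 fold change 0.93, SE 0.0863, adjusted p = 5.25e-07) and 3.09-fold in *KD2* (1.63, SE 0.0842, adjusted p = 1.33e-09). *KD2* was 1.62-fold above *KD1* (0.70, SE 0.0774, adjusted p = 2.20e-06). Of all genes tested, 10.8% had a higher log2 fold change in *KD1* and 8.06% in *KD2*.

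*Stat3*, which answers cytokines of the interleukin 6 family and drives involution, rose to about the same level in both lines. Its counts were 2893, 4199 and 3251 in *WT*, 8129, 7627 and 7519 in *KD1*, and 7110, 8175 and 6125 in *KD2*. Every *KD* culture, at 272 CPM or more, lay above every *WT* culture, at 168 CPM or less, and the *KD* lines overlapped each other. The rise was 1.90-fold in *KD1* (log2 fold change 0.93, SE 0.0610, adjusted p = 1.42e-08) and 1.81-fold in *KD2* (0.86, SE 0.0610, adjusted p = 3.03e-08). Between the lines the difference was -0.07 (SE 0.0601, adjusted p = 0.32), and it passed the test without WT replicate 1 and KD2 replicate 3 (-0.11, adjusted p = 0.0079). It was 0.06 with scaling by library size alone, which moves every log2 fold change of *KD2* by 0.11 against *WT* and 0.13 against *KD1*.

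*Stat5a*, the main STAT5 gene of milk production, rose in *KD2* and not in *KD1*. Its counts were 279, 425 and 329 in *WT*, 393, 400 and 355 in *KD1*, and 708, 848 and 677 in *KD2*. The *KD2* cultures, at 28.2 to 33.3 CPM, lay above all others, while *KD1*, at 14.3 to 15.7, overlapped *WT*, at 14.3 to 17.0. In *KD2* it was 1.89-fold above *WT* (log2 fold change 0.92, SE 0.0892, adjusted p = 6.54e-07) and 2.02-fold above *KD1* (1.01, SE 0.0883, adjusted p = 1.83e-07). In *KD1* the log2 fold change was -0.09 (SE 0.0930, adjusted p = 0.42), and -0.16 (adjusted p = 0.0437) without WT replicate 1 and KD2 replicate 3.

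*Stat5b*, the close relative of *Stat5a* that carries much of the growth hormone signal in liver, moved little. It had 1166, 1491 and 1297 counts in *WT*, 1862, 1699 and 1651 in *KD1*, and 1469, 1656 and 1253 in *KD2*. The *KD1* cultures, at 66.6 to 68.7 CPM, lay above those of *WT*, at 59.6 to 63.3, and *KD2*, at 55.1 to 61.6, overlapped *WT*. The log2 fold change in *KD1* was 0.15 (SE 0.0601, adjusted p = 0.0518), just short of passing the test. It passed in 8 of 18 alternatives, for example without WT replicate 3 (0.20, adjusted p = 0.0318) or without KD2 replicate 3 (0.17, adjusted p = 0.0045). Over all of them it was 0.12 to 0.20, where 0.12 is the value of *Stat5a* and *Stat5b* summed and not of *Stat5b* itself. In *KD2* it was -0.05 (SE 0.0605, adjusted p = 0.45), 0.06 with scaling by library size alone, and -0.11 (adjusted p = 0.0471) without both libraries that stood apart. *KD2* was below *KD1* (-0.20, SE 0.0599, adjusted p = 0.0090), a difference that did not pass with library size alone (-0.07, adjusted p = 0.29).

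**Figure D2:**
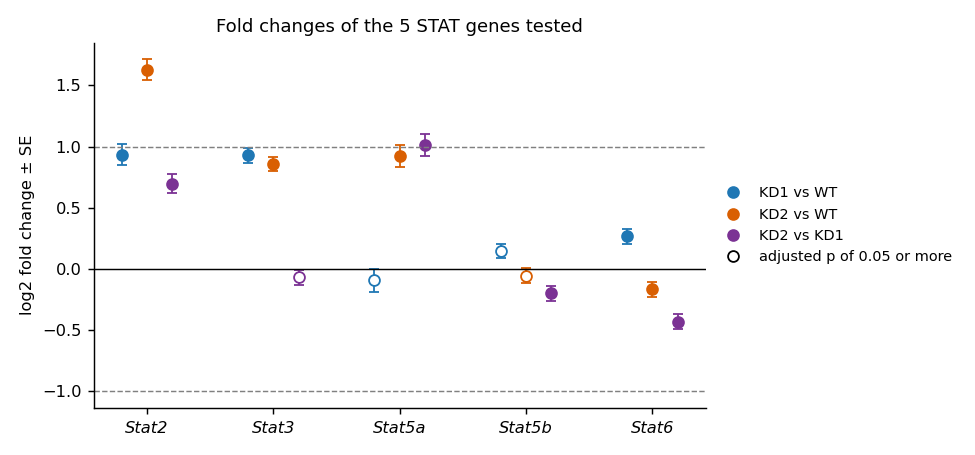
Log2 fold change of the 5 STAT genes tested (points, with the SE as bars) in the comparisons of *KD1* with *WT*, *KD2* with *WT* and *KD2* with *KD1*. Open points did not pass an adjusted p of 0.05 and dashed lines mark a 2-fold change, which *Stat2* passed in *KD2* and *Stat5a* in *KD2* against *KD1*.

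The balance of the STAT5 genes therefore differed between the lines. The ratio of *Stat5a* to *Stat5b*, in CPM per kb, ran from 0.186 through 0.197 to 0.221 over the *WT* cultures. It was 0.164, 0.167 and 0.183 in *KD1*, against 0.374, 0.398 and 0.420 in *KD2*. *Stat5b* was the more abundant in every culture, the *KD1* ratios all lay below those of *WT*, and the *KD2* ratios all lay above. On the log2 scale the mean ratio of *KD2* was 0.98 above *WT* and 1.21 above *KD1*, and that of *KD1* was 0.23 below *WT* (difference -0.23). Each had an exact two-sided permutation p of 0.1, the smallest that 3 cultures against 3 allow. With *Stat5a* and *Stat5b* summed as 1 feature, the log2 fold change was 0.12 in *KD1* (adjusted p = 0.11) and 0.24 in *KD2* (adjusted p = 0.0037), so the STAT5 transcript as a whole rose in *KD2* by less than *Stat5a* did.

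**Figure D3:**
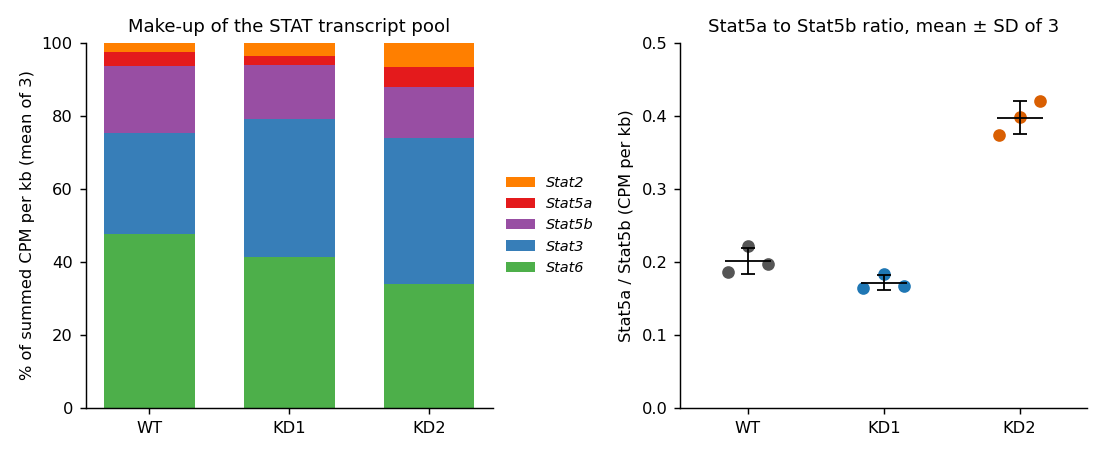
Left, mean share of each STAT gene in the summed level (CPM per kb, 3 cultures per line), stacked from 0 to 100%. Right, ratio of *Stat5a* to *Stat5b* in each culture (points) with the mean and SD (bars), which was 0.201 ± 0.0182 in *WT*, 0.171 ± 0.0102 in *KD1* and 0.397 ± 0.0227 in *KD2*.

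*Stat6*, which carries the signals of interleukins 4 and 13, rose in *KD1* and fell slightly in *KD2*. Its counts were 2311, 3248 and 2642 in *WT*, 4019, 3927 and 3744 in *KD1*, and 2772, 3205 and 2398 in *KD2*. The lines did not overlap, with *KD2* at 107 to 118 CPM, *WT* at 118 to 130 and *KD1* at 148 to 154, though the nearest *WT* and *KD2* cultures were close. In *KD1* it was 1.20-fold above *WT* (log2 fold change 0.27, SE 0.0600, adjusted p = 0.0017), and *KD2* was below *KD1* (-0.43, SE 0.0601, adjusted p = 2.03e-05). The fall in *KD2* (-0.17, SE 0.0603, adjusted p = 0.026) was lost in 7 of 17 alternatives, over which it ranged from -0.25 to -0.06. It was lost without WT replicate 2 (-0.12, adjusted p = 0.16), WT replicate 3 (-0.12, adjusted p = 0.15), KD2 replicate 1 (-0.16, adjusted p = 0.068) or KD2 replicate 2 (-0.13, adjusted p = 0.12).

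Genes that act with STATs were taken from lists of Janus kinases, receptors, inhibitors and partners, 58 genes of which 49 were tested. Of these, 21 rose and 15 fell in *KD1*, with a median log2 fold change of 0.13 against -0.03 over all genes tested. In *KD2*, 21 rose and 15 fell, with a median of 0.01 against 0.01. Between the lines, 19 were higher and 18 lower in *KD2*. In all, 36, 36 and 37 of the 49 changed in these comparisons, beside 56.9%, 67.2% and 67.8% of all genes tested, and against *WT* each list other than the Janus kinases held genes moving both ways.

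All 4 Janus kinases, which phosphorylate STATs, rose in *KD2*, and 3 rose in *KD1*, beside 34.0% and 26.9% of all genes tested. *Jak2*, the kinase of the prolactin receptor, went from 38.2 ± 1.96 CPM in *WT* to 73.3 ± 1.44 in *KD1* (log2 fold change 0.94, adjusted p = 1.96e-07) and 52.0 ± 6.06 in *KD2* (0.45, adjusted p = 0.000196). *Jak3*, best known from lymphocytes, went from 12.8 ± 0.835 to 29.2 ± 4.93 in *KD2* (1.18, adjusted p = 4.56e-07) and was at 11.4 ± 0.645 in *KD1* (-0.16, adjusted p = 0.25). *Tyk2* and *Jak1*, which serve the interferon receptor, rose too, with 0.25 and 0.27 for *KD1* and 0.74 and 0.39 for *KD2* on the log2 scale. *Jak2* was thus higher in *KD1* than in *KD2* (-0.49, adjusted p = 6.36e-05), and *Jak3* and *Tyk2* were higher in *KD2* (1.35, adjusted p = 9.02e-08, and 0.49, adjusted p = 2.18e-05).

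Of 29 receptor genes, 20 were tested, of which 10 rose and 7 fell in *KD1* and 7 rose and 6 fell in *KD2*. Among all genes tested, 26.9% rose and 30.0% fell in *KD1*, and 34.0% rose and 33.3% fell in *KD2*. *Lepr* (2, 3 and 0 counts in *WT*), counted as a rise in *KD2*, passed the filter only through *KD2* cultures. Its direction was fixed by the filter and is no support. *Prlr*, the prolactin receptor that activates STAT5, was at 11.5 ± 0.589 CPM in *WT*, 39.4 ± 0.566 in *KD1* and 7.77 ± 2.05 in *KD2*. It rose in *KD1* (log2 fold change 1.77, adjusted p = 2.60e-08) and fell in *KD2* (-0.56, adjusted p = 0.0028). In *KD2*, where *Stat5a* was high, the receptor was thus low, and in *KD1*, where *Stat5a* was not, it was high. *Ghr*, the growth hormone receptor, rose in both (1.29, adjusted p = 2.42e-08, and 0.98, adjusted p = 3.58e-07). *Lifr*, a receptor chain of leukemia inhibitory factor, which activates STAT3, fell in *KD1* from 23.5 ± 2.20 to 2.76 ± 0.401 CPM (-3.09, adjusted p = 4.91e-11) and was at 23.7 ± 1.97 in *KD2* (0.01, adjusted p = 0.90). *Il11ra1* rose in *KD2* (1.71, adjusted p = 1.78e-07), though it has a near-identical copy with which reads may be shared.

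Of 19 inhibitors, 6 rose and 5 fell in *KD1*, where 26.9% of all genes tested rose and 30.0% fell. In *KD2*, 7 rose and 7 fell, beside 34.0% and 33.3% of all genes. *Socs3*, the feedback inhibitor of STAT3 signaling, went from 63.1 ± 8.62 CPM to 179 ± 6.42 in *KD1* (log2 fold change 1.50, adjusted p = 4.06e-09) and 134 ± 8.82 in *KD2* (1.08, adjusted p = 1.12e-07). *Cish*, which STAT5 induces and which dampens it, rose from 23.4 ± 1.73 to 54.2 ± 1.67 (1.21, adjusted p = 2.28e-08) and 40.5 ± 4.38 (0.79, adjusted p = 1.76e-06). *Usp18*, which holds back interferon signaling, and the phosphatase gene *Ptpn6* rose more in *KD2* (1.76 and 1.32) than in *KD1* (0.84 and 0.78), with differences between the lines of 0.92 (adjusted p = 2.38e-06) and 0.54 (adjusted p = 0.000506).

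Of 6 partners, 2 rose and 3 fell in *KD1*, beside 26.9% and 30.0% of all genes tested. In *KD2*, 3 rose and 2 fell, beside 34.0% and 33.3%, and 3 changed in all with scaling by library size alone. *Irf9*, the DNA-binding partner of STAT2, stood at 10.6 ± 0.330 CPM in *WT*, 13.2 ± 0.373 in *KD1* and 15.7 ± 1.28 in *KD2* (log2 fold changes 0.32, adjusted p = 0.0063, and 0.56, adjusted p = 4.86e-05). *Nmi*, which binds STAT proteins, rose by 0.60 and 1.19. The coactivator genes *Crebbp* and *Ncoa1* fell in *KD1* (-0.26 and -0.85). In *KD2*, *Crebbp* fell (-0.23), *Ep300* fell (-0.16, adjusted p = 0.0415) and *Ncoa1* was at 0.03 (adjusted p = 0.69). *Nr3c1*, the glucocorticoid receptor that works with STAT5 on milk genes, fell in *KD1* (-0.56, adjusted p = 0.000442) and rose in *KD2* (0.49, adjusted p = 0.000928).

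**Figure D4:**
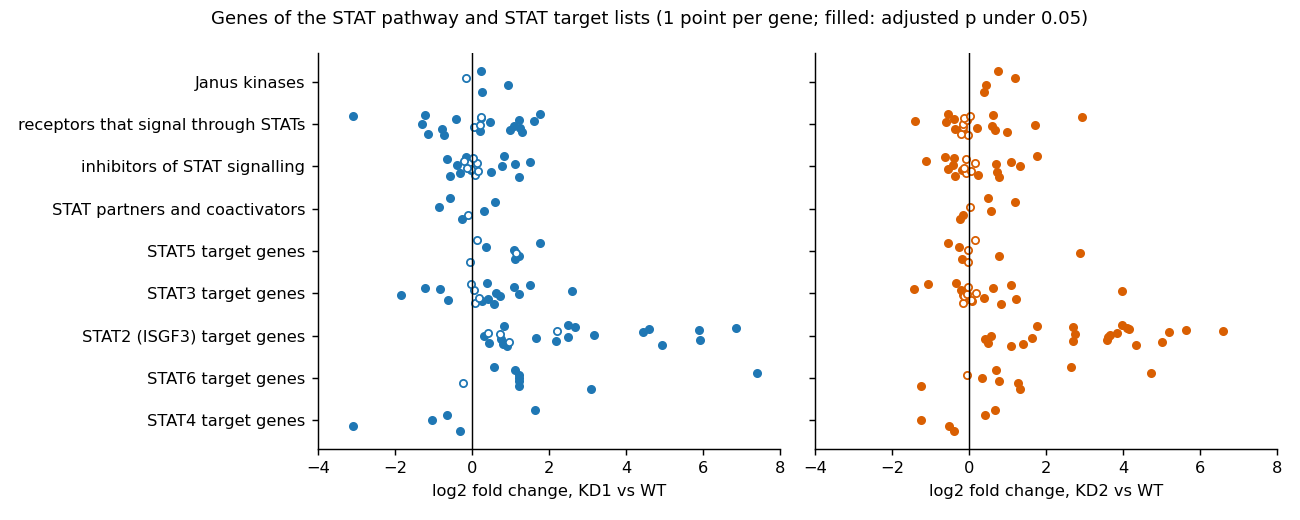
Log2 fold change against *WT* in *KD1* (left) and *KD2* (right) of each gene tested in the lists of STAT pathway and STAT target genes, 1 point per gene. Filled points passed an adjusted p of 0.05. Of the STAT2 target genes all 22 did so upward in *KD2* and 18 in *KD1*, beside 34.0% and 26.9% of all genes tested. Some of these passed the filter on low counts only through *KD* cultures, which fixed their direction. A gene in more than 1 list is drawn in each.

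Genes known as targets of each STAT were counted in the same way, from lists that overlap in part. The lists were written with earlier results of these data known, so the counts describe them and are no independent support. Each count is to be read beside all genes tested, of which 26.9% rose and 30.0% fell in *KD1*, and 34.0% rose and 33.3% fell in *KD2*. For STAT5, 8 of 20 listed genes were tested, of which 5 rose in *KD1*, and 2 rose and 3 fell in *KD2*, where the share that changed was near the 67.2% of all genes. Of the 2 that rose in *KD2*, *Elf5* (4, 4 and 7 counts in *WT*) passed the filter only through *KD* cultures, so its rise is no support. *Ccnd1*, the cell-cycle gene cyclin D1, went from 716 ± 16.5 CPM in *WT* to 1545 ± 42.8 in *KD1* (log2 fold change 1.11, adjusted p = 2.16e-10) and 631 ± 17.2 in *KD2* (-0.18, adjusted p = 0.0047). *Pim1*, a survival kinase, rose in *KD1* (1.10, adjusted p = 7.29e-08) and was at -0.02 in *KD2* (adjusted p = 0.87). The milk genes *Csn1s1*, *Csn1s2a*, *Csn1s2b*, *Csn2*, *Csn3*, *Wap*, *Lalba* and *Glycam1* had at most 2 counts in any culture, below the floor, so no change in them could be seen in these undifferentiated cells.

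For STAT3, 18 of 20 listed genes were tested, of which 10 rose and 4 fell in *KD1*, and 6 rose and 5 fell in *KD2*, a share below the 67.2% of all genes that changed there. *Lcn2*, an acute-phase gene, went from 4.00 ± 0.660 CPM to 24.0 ± 0.999 in *KD1* (log2 fold change 2.59, adjusted p = 3.37e-09) and 62.9 ± 10.9 in *KD2* (3.98, adjusted p = 5.04e-11). *Myc* fell in both lines (-0.83, adjusted p = 3.36e-08, and -1.43, adjusted p = 2.04e-10). *Igfbp5*, which rises in the gland at involution, fell in *KD1* from 1979 ± 159 to 557 ± 4.97 CPM (-1.83, adjusted p = 1.03e-11) and to 1765 ± 67.7 in *KD2* (-0.16, adjusted p = 0.025). 

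For STAT2, all 22 listed interferon-response genes were tested, 18 of which rose in *KD1*, and all 22 rose in *KD2*, where 26.9% and 34.0% of all genes rose. Their median rise on the log2 scale was 2.20 for *KD1* and 3.60 for *KD2*, or 1.92 and 3.60 with the 4 genes whose *WT* cultures were all at or under 3 counts set at their lower bound. *Ifit1* went from 0.569 ± 0.165 CPM in *WT* to 34.6 ± 1.38 in *KD1* and 6.83 ± 1.55 in *KD2*. *Rsad2* went from 0.228 ± 0.0712 to 27.4 ± 0.808 and 4.01 ± 0.423. Both were lower in *KD2* than in *KD1* (-2.32, adjusted p = 1.10e-09, and -2.77, adjusted p = 1.40e-11), the reverse of the order of *Stat2* itself, while over the list 12 genes were higher in *KD2* and 5 lower, beside 34.8% and 33.0% of all genes tested. *Oas1a*, of a family of close copies, was at 0.211 ± 0.0991, 4.77 ± 0.498 and 8.02 ± 1.11 CPM, and *Oas3* was at 3.96 ± 0.0730 in *KD1* and 3.31 ± 0.460 in *KD2*, with at most 2 counts in any *WT* culture. With at least 10 counts required in every culture, fewer of the 22 were tested, and 11 changed in *KD1* and 11 in *KD2*. The 4 genes at or under 3 counts in all *WT* cultures passed the main filter only through *KD* cultures. So did the others with fewer than 10 counts in WT replicate 2, among them *Rsad2* (5, 7 and 3 counts in *WT*) and *Oas1a* (5, 7 and 2). The upward direction of all these genes was thus fixed by the filter and is no support.

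For STAT6, 9 of 18 listed genes were tested, of which 8 rose in *KD1*, and 7 rose and 1 fell in *KD2* (26.9% and 34.0% of all genes rose). *Mrc1*, with 0 counts in every *WT* culture, is counted as a rise in both lines but passed the filter only through *KD1*. *Ccl17* (4, 8 and 0 counts in *WT*), counted as a rise in *KD2*, passed it only through *KD2*. The direction of both was fixed by the filter and is no support. *Il4ra*, the receptor chain that activates STAT6, rose in *KD1* (log2 fold change 1.22, adjusted p = 2.41e-08) and was at -0.06 in *KD2* (adjusted p = 0.53). *Arg1*, which encodes arginase, rose in *KD1* (1.22, adjusted p = 2.36e-05) and fell in *KD2* (-1.25, adjusted p = 0.000101). *Alox15*, a lipoxygenase gene, rose in both (3.09 and 1.31), and *Tgm2*, a transglutaminase gene, rose more in *KD2* (2.64) than in *KD1* (0.57), by 2.06 (adjusted p = 7.59e-11). For STAT4, which was not detected, 5 of 10 listed genes were tested, of which 1 rose and 4 fell in *KD1*, and 2 rose and 3 fell in *KD2* (56.9% and 67.2% of all genes changed). *Il18r1* fell in both (-1.05 and -1.24), *Gadd45g* fell in both (-3.08 and -0.51), *Map3k8* rose in both (1.64 and 0.66), and *Il18rap* fell in *KD1* (-0.64) and rose in *KD2* (0.41).

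The genes around *Stat3*, *Stat5a* and *Stat5b* were examined because a change of the whole region would move them together. Within 250 kb of any of the 3, 20 other genes were tested. In *KD1*, 10 rose and 2 fell, with a median log2 fold change of 0.34, where the 1238 genes tested on chromosome 11 had 0.15. In *KD2*, 11 rose and 2 fell, with a median of 0.16 against 0.10 on the chromosome. The 12 and 13 that changed are close to the 56.9% and 67.2% of all genes tested. By direction, 26.9% of all genes rose and 30.0% fell in *KD1*, and 34.0% rose and 33.3% fell in *KD2*. Rises were thus more frequent among these neighbours than among all genes. *Cavin1*, the nearest gene tested beyond *Stat3*, was at 0.02 in *KD1* (adjusted p = 0.85) and rose by 0.83 in *KD2* (adjusted p = 1.19e-07), as *Stat5a* did. *Ghdc*, the nearest beyond *Stat5b*, rose in both (0.57, adjusted p = 0.000248, and 0.76, adjusted p = 1.24e-05), where *Stat5b*, between *Ghdc* and *Stat5a*, moved little. *Ttc25*, 208163 bases from *Stat5b*, rose in *KD2* (3.23, adjusted p = 7.91e-08) from 6 to 8 counts per *WT* culture.

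**Figure D5:**
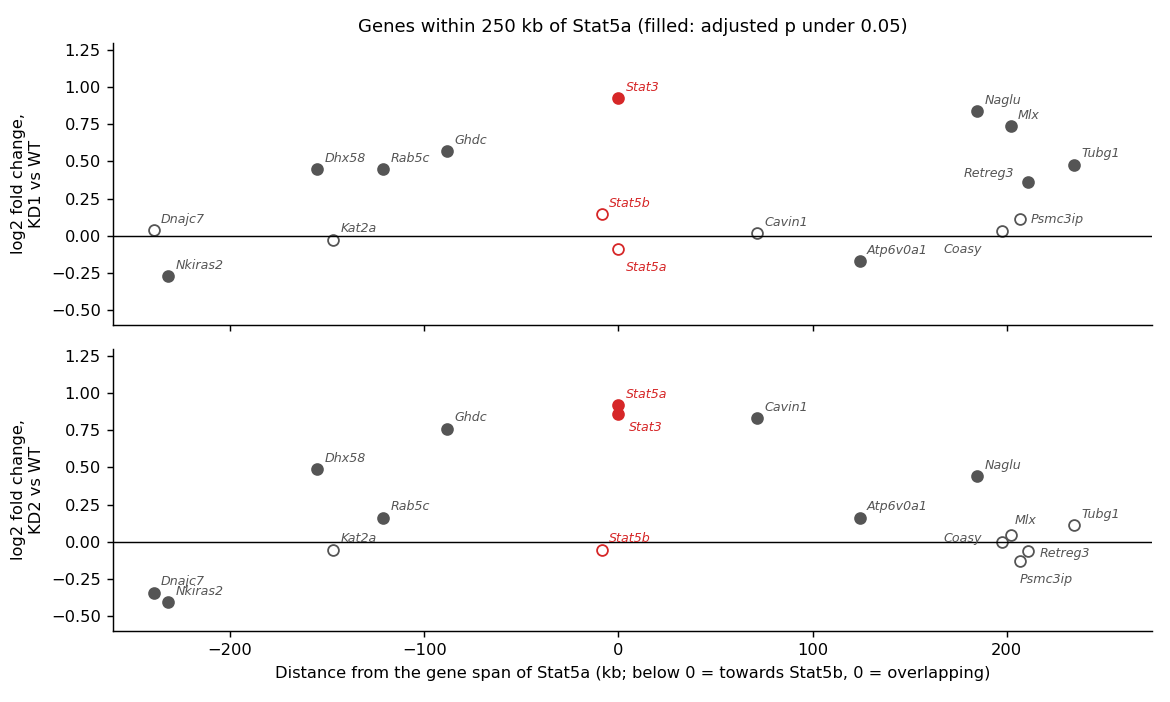
Log2 fold change against *WT* in *KD1* (top) and *KD2* (bottom) of genes tested within 250 kb of *Stat5a*, by distance in kb from the span of *Stat5a* (STAT genes in red, filled points with an adjusted p under 0.05). *Stat3* and *Stat5a*, which overlap at 0 kb, were apart in *KD1* (0.93 and -0.09) and together in *KD2* (0.86 and 0.92), and *Stat5b* beside them stood near 0 in both.

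Around *Stat2*, 26 genes were tested, of which 3 rose and 12 fell in *KD1* (median log2 fold change -0.15) and 2 rose and 15 fell in *KD2* (-0.31). The 15 and 17 that changed are close to the 56.9% and 67.2% of all genes tested, and chromosome 10 as a whole had medians of -0.16 and -0.15. Falls were more frequent among these neighbours than among all genes, of which 30.0% fell in *KD1* and 33.3% in *KD2*. *Stat2* thus rose where most neighbours that changed fell. *Il23a*, which encodes a subunit of interleukin 23 and lies 3.29 kb from *Stat2*, rose in *KD1* (4.71, adjusted p = 2.42e-12) and fell in *KD2* (-0.88, adjusted p = 0.0083). *Pan2*, the next gene at 10486 bases, fell in *KD1* (-0.25, adjusted p = 0.0033) and rose in *KD2* (0.40, adjusted p = 4.76e-05). Around *Stat6*, 9 genes were tested, of which 2 rose and 6 fell in *KD1* (median -0.41) and 1 rose and 6 fell in *KD2* (-0.75), with 30.0% and 33.3% of all genes falling.

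Genes whose log2 CPM followed a member most closely over the 9 cultures are given as a description, since the 3 lines set most of the spread. Those that followed *Stat2* include *Ube2l6* and *Xaf1* (Pearson's r 0.996 each), of which *Xaf1* is on the list of STAT2 targets. *Stat3* was followed by *Actn1*, *Marcksl1* (0.998 each) and *Axl* (0.997). *Stat5a* was followed by *Map3k14* (0.997), *Itm2c* and *Phldb1* (0.995 each), all about level in *WT* and *KD1* and high in *KD2*. *Stat5b* had no gene as close, with *Cacfd1* (0.970), *Gm16286* (0.969) and *Mettl7b* (0.960), and *Stat6* was followed by *Mtif3*, *Arpc3* (0.995 each) and *Dhcr7* (0.993). Among the members themselves, *Stat5b* and *Stat6* were closest (0.920), then *Stat2* and *Stat3* (0.870), while *Stat5a* ran against *Stat6* (-0.73) and *Stat5b* (-0.61).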

How the data were processed

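RNA-seq counts of 9 HC11 cultures were analysed, 3 each of *WT*, *KD1* and *KD2*, grouped by the sample labels. Lysed cells were flash frozen according to the labels, which the methods contradict. The authors deposited whole-number counts per gene without normalization, made from poly-A libraries read in pairs with fastp, HISAT2 (GRCm38) and featureCounts over exons, and tested them with DESeq2. Strandedness and the treatment of reads that map to several places are not given in the sources used here.

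Here, edgeR 4.0.16 in R 4.3.3 was used with its quasi-likelihood test, TMM scaling and expression filter on the 3 lines, fitted jointly to the 9 cultures with no block. Benjamini-Hochberg adjustment ran over 15253 genes, and a gene was called changed at an adjusted p under 0.05. CPM are counts scaled to a common, TMM-adjusted library size, and CPM per kb divide by the union of annotated exons. The reads carried no molecular identifiers, so the floor of 3 counts covers counting error only. Every replicate pair differed beyond sampling noise. Nothing in the labels says that replicates came from separate cultures beyond their numbers, so p-values measure the spread between these samples, which may be technical. Positions, shared windows and neighbours came from GENCODE M21 (53569 of 55228 gene names matched) and promoters from RefSeq (GRCm38.p6, all 6 genes matched). The test was checked on simulated data.

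The members and gene lists were chosen with earlier results of these data known, and no list was tested as a set. Named were all members, the Janus kinases and partners, in each other list up to 4 genes with the largest change against *WT* among those changed with a mean log2 CPM above 1, the 3 genes most correlated with each member, and neighbours within 250 kb. *Cd4*, *Nkg7*, *Adgre1*, *Col1a2*, *Lum*, *Dcn*, *Pdgfra*, *Pdgfrb*, *Col1a1*, *Krt5*, *Krt14*, *Krt8*, *Cdh1*, *Epcam*, *Cldn4*, *Cldn7*, the milk genes and *Gm28177* were named after their counts were seen. So were *Lepr*, *Elf5*, *Mrc1* and *Ccl17*. Alternatives were DESeq2 1.42.0, median-of-ratios size factors, library size alone, 2 other filters, the 6 cultures compared, a replicate block, each culture left out, *Stat5a* and *Stat5b* summed, and, chosen after seeing the data, WT replicate 1 and KD2 replicate 3 left out together. A further gene of the family and 1 of the correlated genes are not reported here.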

Additional observations from a re-analysis of the deposited data

Results flagged for a closer look

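For 4 of the 5 STAT genes tested, the effect in *KD2* differed from that in *KD1*, as it did for 67.8% of all genes tested. This count thus does not set the family apart. The test was of the difference itself, the comparison of *KD2* with *KD1* in the same fit. Both effects are taken against the same *WT* cultures. The log2 difference of *KD2* from *KD1* was 0.70 for *Stat2* and 1.01 for *Stat5a*, higher in 3 of 3 *KD2* cultures than in any *KD1* culture. It was -0.20 for *Stat5b* and -0.43 for *Stat6*, lower in 3 of 3. Groups of 3 cultures are too small for a test of single cultures that stand apart.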

How the results depend on the processing

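Of 261 member fold changes under the alternatives, 235 kept their direction and their side of the threshold, and 6 turned direction. Some of these turns are the sum of *Stat5a* and *Stat5b*, another feature that was counted as an alternative for each gene. The sum was at 0.12 in *KD1*, where *Stat5a* itself was below 0. It was at 0.24 in *KD2* against *WT* and 0.11 against *KD1*, where *Stat5b* itself was below 0. The sum shows no turn of either gene. Library size alone turned *Stat5b* in *KD2* to 0.0563 and *Stat3* in *KD2* against *KD1* to 0.0561, where every log2 fold change of *KD2* shifts by 0.11 and 0.13. At least 10 counts in every culture turned *Stat5b* in *KD2* to 0.0169. The *Stat2* rise, the *Stat3* rise and the *Stat5a* rise in *KD2* passed under every alternative run, and the *Stat5a* excess over *KD1* under all but the sum of both genes (0.11, adjusted p = 0.11).

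The number of STAT genes changed in *KD1* went from 3 to 5 without WT replicate 1 and KD2 replicate 3, which are the libraries with the most scatter, and was 3 or 4 with any single culture left out. The share of all genes that changed in these settings is not given here. Counts changed by at most 1.5 times in 455 of 459 list counts. Of the STAT2 target genes, 18 changed in *KD1* and 22 in *KD2*, and 11 and 11 with at least 10 counts in every culture, where fewer genes were tested. Between the lines, 17 of them changed and 8 under that filter. The fourth list count that moved further was that of partners changed in *KD2*, 5, and 3 with library size alone. Same-numbered cultures did not deviate together (mean correlation 0.00116 over 9 pairs, and -0.00109 over 18 pairs with different numbers). With the replicate block, 3, 4 and 4 STAT genes changed in *KD1*, in *KD2* and between the lines, as without it. Depth limits *Stat4* and the milk genes, which lie at or below the floor.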
